A study of Mus musculus with 4 samples.

Results

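The Hox genes of mouse were described as they stand in the gene annotation that accompanies a study of RNA polymerase I (Pol I) occupancy. Members were all symbols made of Hox, a cluster letter from a to d and a number, on the assembled chromosomes, which gave 39 of 26125 gene symbols and 46 of 47116 rows, a row being 1 annotated transcript. Pol I was profiled by CUT&Tag, in which an antibody directs a transposase to chromatin, in C64 mouse embryonic stem cells. The groups were 2 libraries from cells given 500 nM auxin for 6 h and 2 control libraries from cells without treatment. Auxin is a plant hormone used to trigger degradation of proteins that carry a degron tag, and the labels used here name no tagged protein. The table analysed here is 1 annotation in BED layout, labelled mm10-rDNA (mm10 being GRCm38 and rDNA ribosomal DNA), with no value per library. The score column was 0 in all 50727 rows. All values below are therefore fixed coordinates with no replicate error, they were compared without tests, and no difference between auxin and control is given.

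Hox genes encode homeodomain transcription factors that give positional identity along the head-to-tail axis of the embryo. They lie in clusters, and within a cluster genes are activated in the order in which they stand, so that low-numbered genes act early and towards the head and high-numbered genes late and towards the tail. Genes of the same number in different clusters are called a paralogue group and descend from the same ancestral gene. In embryonic stem cells the clusters are known as regions held silent by Polycomb proteins, which are released in turn as cells differentiate.

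The annotation listed 11 genes in HoxA, 10 in HoxB, 9 in HoxC and 9 in HoxD. HoxA lay on chromosome 6 on the minus strand, HoxB occupied chr11:96194316-96368253 on the plus strand, HoxC chr15:102921131-103036852 on the plus strand and HoxD chr2:74668225-74765142 on the plus strand. All 39 symbols of the standard mouse Hox list had a row, and no Hox row lay on another contig. Of the 52 possible places (13 groups in 4 clusters), 13 were empty. Groups 4, 9 and 13 had a gene in each of the 4 clusters, groups 1, 3, 5, 6, 8, 10 and 11 had 3 genes, and groups 2, 7 and 12 had 2. HoxA lacked groups 8 and 12, HoxB lacked 10, 11 and 12, HoxC lacked 1, 2, 3 and 7, and HoxD lacked 2, 5, 6 and 7. The lowest-numbered gene of HoxC was thus Hoxc4.

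All 39 genes were transcribed on the strand of their cluster, in the direction from group 13 towards group 1. Among the 172 pairs of genes within a cluster, 0 were out of numerical order when placed by their coding start. When placed by transcript start in the deposited rows, 4 pairs were out of order. In each the far gene was of group 3 (Hoxa3 against Hoxa4, Hoxa5 and Hoxa6, and Hoxd3 against Hoxd4). The Hox genes lay in unbroken same-strand runs of 12 protein-coding loci for HoxA, 12 for HoxB, 9 for HoxC and 11 for HoxD. Runs at least as long as the shortest of these, 9 loci, held 7.08% of the 20992 protein-coding loci as a whole, where the median run was 3. That length was taken from the Hox runs themselves, so all 39 Hox genes meet it by construction. Genes outside the clusters extended 3 of these runs, with Skap2 joining HoxA, Ttll6 and Skap1 joining HoxB, and Mtx2 and Hnrnpa3 joining HoxD.

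**Figure D1:**
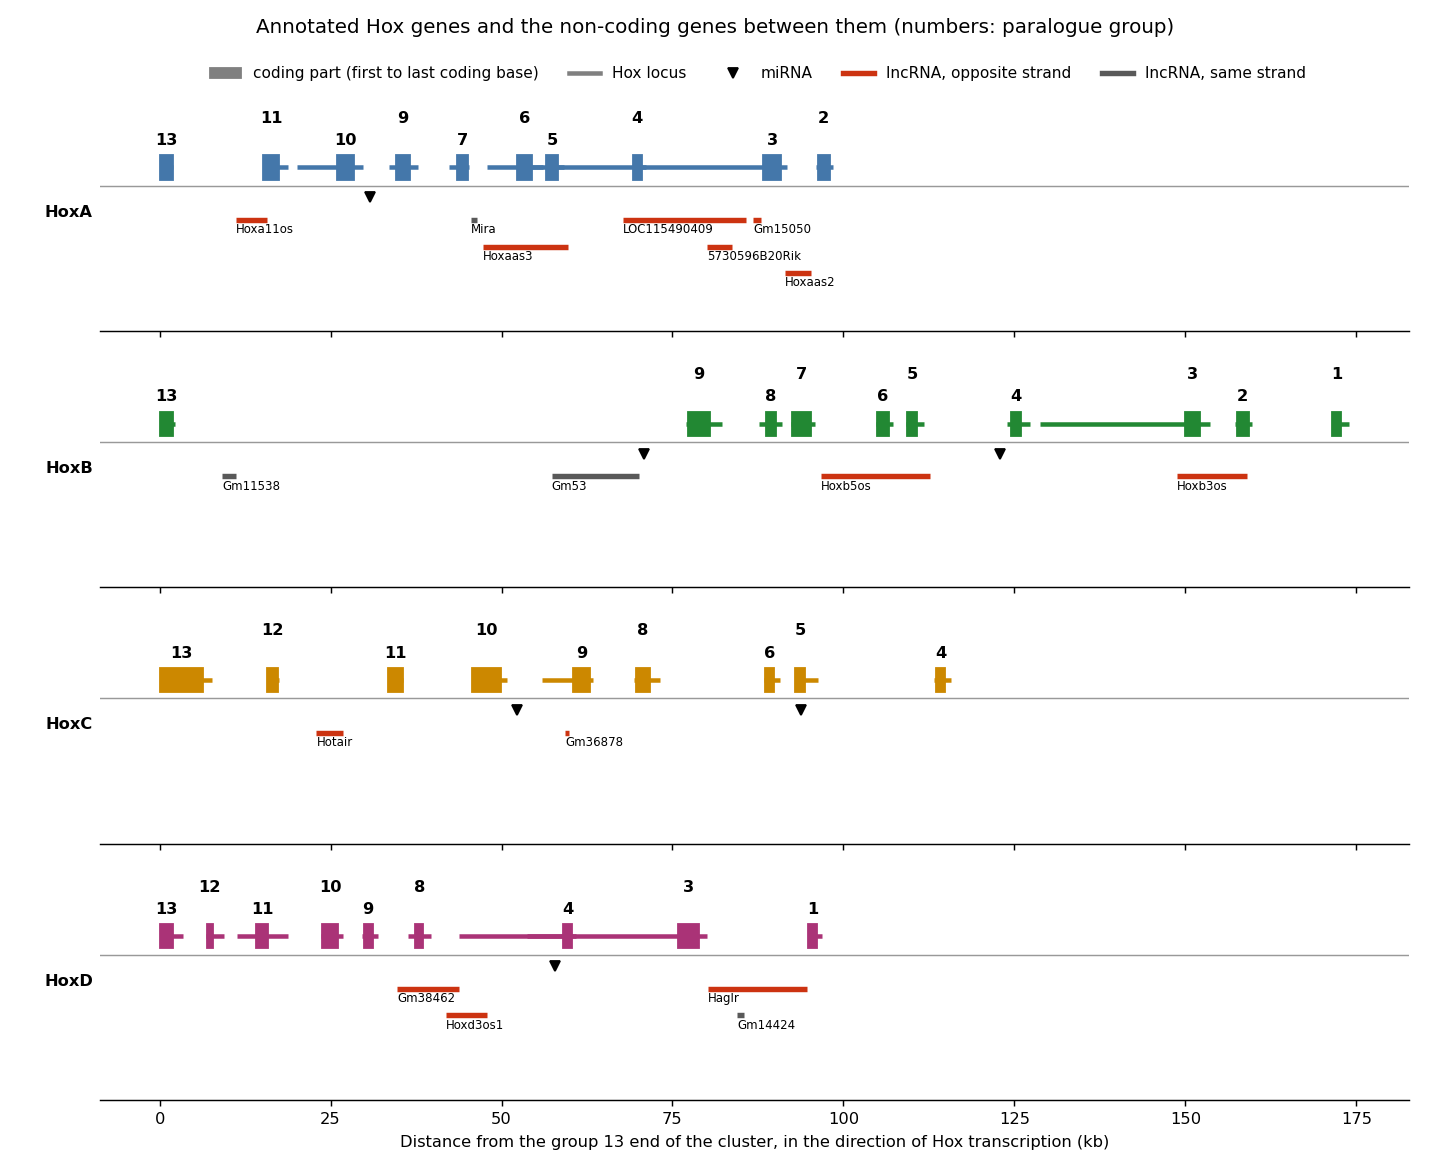
Map of the 4 clusters to scale, with distance in kb from the group 13 end along the direction of Hox transcription, so that the Hox genes read from left to right, with 1 gene of HoxA not drawn. Boxes are coding parts (introns between them included), lines are whole loci, numbers are paralogue groups, triangles are miRNAs and bars below are lncRNAs. The lines of Hoxa3 and Hoxd3 run through the coding parts of their upstream neighbours, and 13 of the 17 lncRNAs drawn lie on the opposite strand.

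The clusters were compact, and HoxB was the longest of the 4 with its outlying gene Hoxb13 included. HoxA measured 105514 bases, HoxB 173938, HoxC 115722 and HoxD 96918. These lengths gave 10.4, 5.75, 7.78 and 9.29 genes per 100 kb in the same order. Hoxb13 stood 74719 bases from Hoxb9, and without it the other 9 genes of HoxB took 96924 bases, 9.29 genes per 100 kb, close to the 96918 bases of the 9 genes of HoxD. For scale, each cluster was set beside all stretches of the same number of consecutive protein-coding loci. Stretches of 11 loci had a median of 720838 bases, and 0.972% of the 20782 were no longer than HoxA. Stretches of 9 loci had a median of 558210 bases, and of the 20824, 1.88% were no longer than HoxD and 3.46% no longer than HoxC. For HoxB with its 10 genes the share was 8.46%, and without Hoxb13 it was 1.89%. The Hox clusters were thus at the short end of the genome's spread without being alone there.

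**Figure D2:**
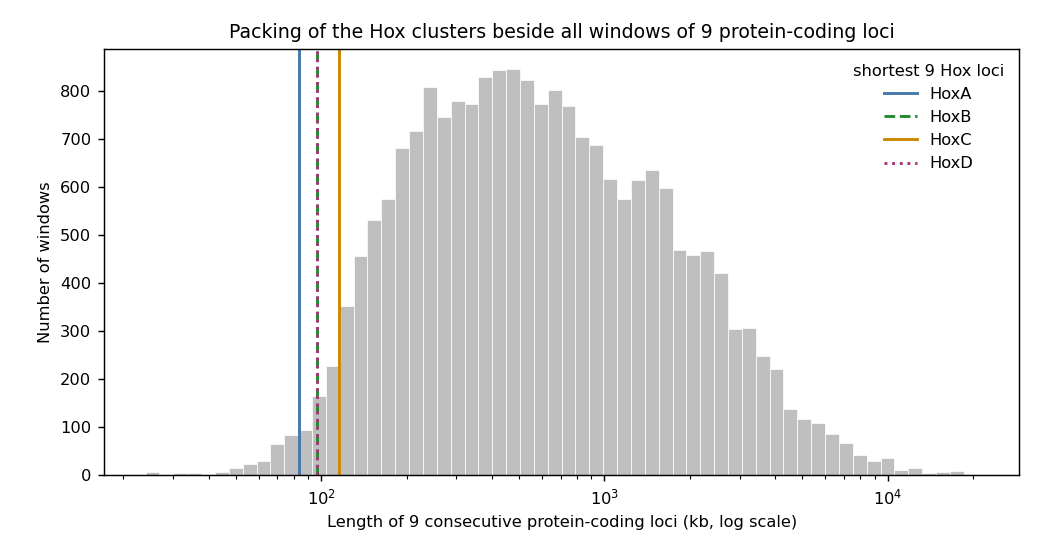
Number of stretches of 9 consecutive protein-coding loci (vertical axis) by their length in kb (horizontal log axis), with lines at the shortest 9 Hox loci of each cluster. The lines stand at 83394 bases for HoxA, 96924 for HoxB, 115722 for HoxC and 96918 for HoxD, against a median of 558210 bases for all stretches, and the HoxB and HoxD lines coincide at this scale.

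What filled the clusters differed between them. Hox loci covered 68.2% of HoxA and 62.9% of HoxD, but 30.3% of HoxB and 31.2% of HoxC. Single long rows enter these shares, with 44006 bases for Hoxa3 and 36279 for Hoxd3, and HoxB includes the 74719 bases between Hoxb13 and Hoxb9. In the RefSeq reference (GRCm38.p6) some genes reach further upstream, most of all Hoxc4 (by 16298 bases) and Hoxb3 (by 16025). The shares were not recomputed without these. Hox exons covered 23.1% of HoxA, 12.2% of HoxB, 14.4% of HoxC and 23.5% of HoxD. Coding bases made up 10.4%, 4.89%, 6.44% and 9.07% of the 4 clusters in that order. Over all 492092 bases of the clusters, 45.1% lay in Hox loci, 17.3% in Hox exons and 7.26% in coding bases. No other protein-coding gene had a locus inside any of the clusters.

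Hox loci were paired in order of group number, and all protein-coding loci in order of their starts. The median gap was 4874 bases over 35 Hox pairs, and 15101 over the 20971 pairs of neighbouring protein-coding loci. The pairings differ where Hoxa3 or Hoxd3 lies across other Hox genes, so these medians are not strictly alike. Where no group number was skipped (29 pairs) the median gap was 4230 bases, with a range of -23386 to 16965, a negative gap being an overlap. Where the annotation skipped a number (6 pairs) the median was 14376 bases, with a range of 4523 to 74719. The shortest gap between paired loci that did not overlap was 270 bases, between Hoxa6 and Hoxa5, both inside the Hoxa3 locus. There were 11 gaps of 10 kb or more. They include Hoxa5 to Hoxa4 (10050 bases), inside the Hoxa3 locus, and Hoxd8 to Hoxd4 (14044 bases), partly filled by the Hoxd3 locus.

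Gaps were also measured between coding parts, which leaves out long untranslated ends, and some pairs were closer in size across clusters than others. The gap between groups 6 and 5 was short in each cluster that has both, at 2014 bases in HoxA, 2685 in HoxB and 3040 in HoxC. The next gap, between groups 5 and 4, was 10892 bases in HoxA, 13632 in HoxB and 19280 in HoxC, the longer of the pair in each. Between groups 4 and 3 the coding parts stood 17692 bases apart in HoxA, 23920 in HoxB and 15424 in HoxD. Between groups 3 and 2 they stood 5295 bases apart in HoxA and 5411 in HoxB. Pairs of higher number could be as alike. Between groups 11 and 10 the gap was 8425 bases in HoxA, 10156 in HoxC and 7841 in HoxD. Between groups 9 and 8 it was 8103 bases in HoxB, 6640 in HoxC and 6126 in HoxD. Between groups 7 and 6 it was 7092 bases in HoxA and 9546 in HoxB. Some others were less alike. Between groups 10 and 9 the gap was 6156 bases in HoxA, 10577 in HoxC and 3687 in HoxD. Between groups 12 and 11 it was 16008 bases in HoxC and 6340 in HoxD, and between groups 13 and 12 it was 9427 in HoxC and 4950 in HoxD. The median gap between coding parts over all 35 pairs was 8425 bases.

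**Figure D3:**
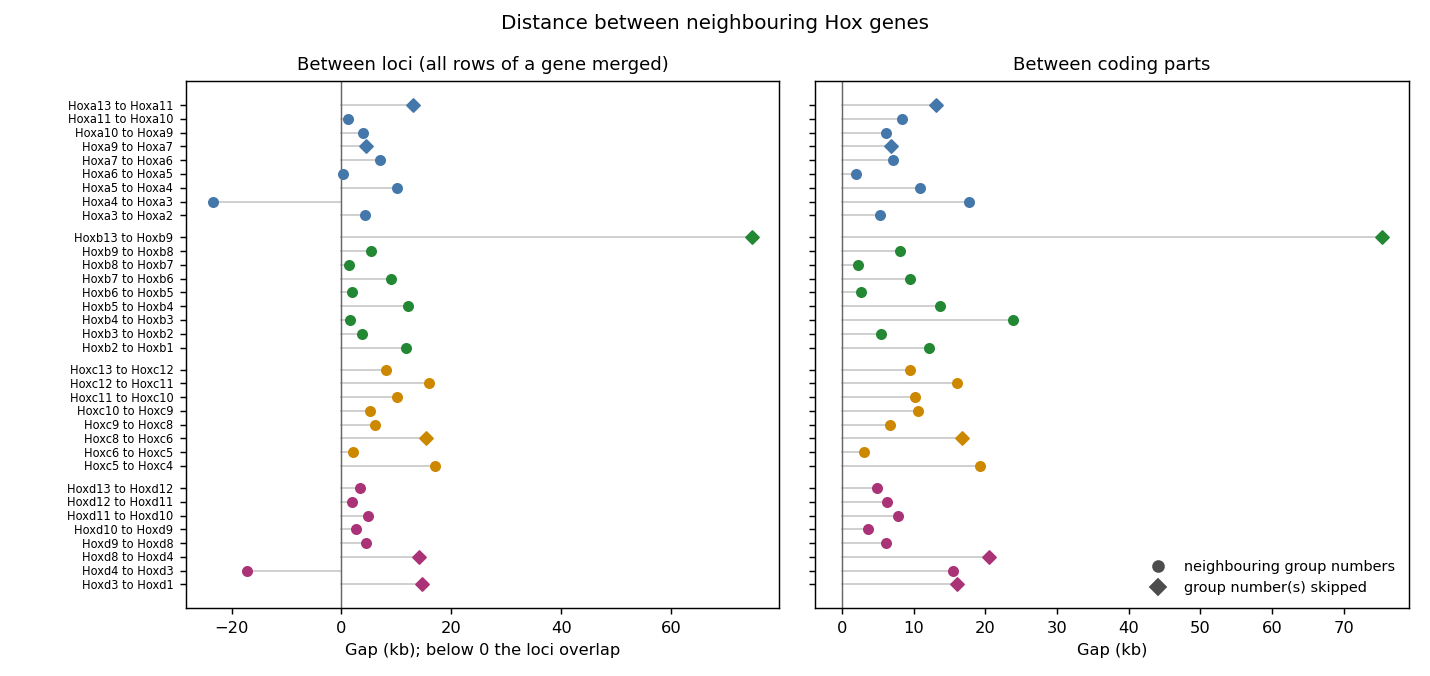
Gap in kb between neighbouring Hox genes (34 of 35 pairs), from the group 13 end downwards within each cluster, between merged loci on the left and between coding parts on the right. Circles are pairs with successive group numbers and diamonds pairs with a number skipped, and the only values below 0 are Hoxa4 to Hoxa3 (-23386 bases) and Hoxd4 to Hoxd3 (-17168 bases), both on the left.

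Hox genes were short, with few exons. With each gene represented by its row with the longest coding part, the 39 Hox genes had a median span of 3216 bases, against 16090 bases for the 20953 other protein-coding genes. Spans ran from 1784 bases for Hoxc12 to 44006 for Hoxa3. The median exon number was 2, against 7 for the others. Exactly 2 exons were annotated for 34 of 39 Hox genes, against 7.13% of protein-coding genes as a whole. The exceptions were Hoxa9, Hoxc9 and Hoxd3 with 3 exons, Hoxa3 with 5 and Hoxd4 with 6. Hoxb3 is among the 34 by the shorter of its rows with equal coding length, and its longer row has 4 exons. Hoxa9 has 3 by its row with the longest coding part, and its other row, with 816 coding bases, has 2. Coding sequence was split over 2 exons in 38 genes and over 3 in Hoxa9, so the additional exons of Hoxc9, Hoxd3, Hoxa3 and Hoxd4 lay in the 5' untranslated part. Coding length had a median of 870 bases, against 1221 for the others, and ran from 654 in Hoxb7 to 1332 in Hoxa3. The median 5' untranslated length was 103 bases, against 132, and the median 3' untranslated length 860 bases, against 680.

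The homeobox, the 180 bases that encode the DNA-binding homeodomain, is known to lie in the second of the usual pair of Hox coding exons. The last coding part was at least 180 bases long in 39 of 39 genes, with a range of 215 in Hoxc5 to 854 in Hoxb3 and a median of 275, against 179 for other genes. The position of the last coding junction within a codon is called its phase, and in phase 1 the junction follows the first base of a codon. It was phase 1 in 39 of 39 Hox genes, against 34.2% of the 17754 protein-coding genes with a coding junction. Among the 17715 such genes outside the Hox set, 43.1% were phase 0, 34.1% phase 1 and 22.9% phase 2. Over rows, 44 of 45 coding rows had phase 1. The intron at this junction varied widely, from 159 bases in Hoxd12 to 5251 in Hoxc13, with a median of 822 against 1194 for other genes.

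Coding length on either side of that junction changed along the clusters. In groups 1 to 4 (12 genes) the last coding part had a median of 356 bases, in groups 5 to 8 (11 genes) 260 and in groups 9 to 13 (16 genes) 243.5. Its range was narrow in the tail-end groups, at 233 to 278 bases, and wide in groups 1 to 4, at 299 to 854. The 5 genes of groups 2 and 3 had the long ones, at 680 for Hoxb2, 740 for Hoxa2, 758 for Hoxd3, 803 for Hoxa3 and 854 for Hoxb3. Hoxa2 and Hoxb2 pattern the hindbrain, and group 3 genes pattern the hindbrain and the pharyngeal arches. Before the junction the order differed, with medians of 482.5 bases in groups 1 to 4, 436 in groups 5 to 8 and 719.5 in groups 9 to 13. The longest such stretch was 976 bases in Hoxa10, and Hoxa13 had 907. Hoxa13 and Hoxd13 pattern the digits and the urogenital tract, and their proteins are known for long alanine tracts ahead of the homeodomain.

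**Figure D4:**
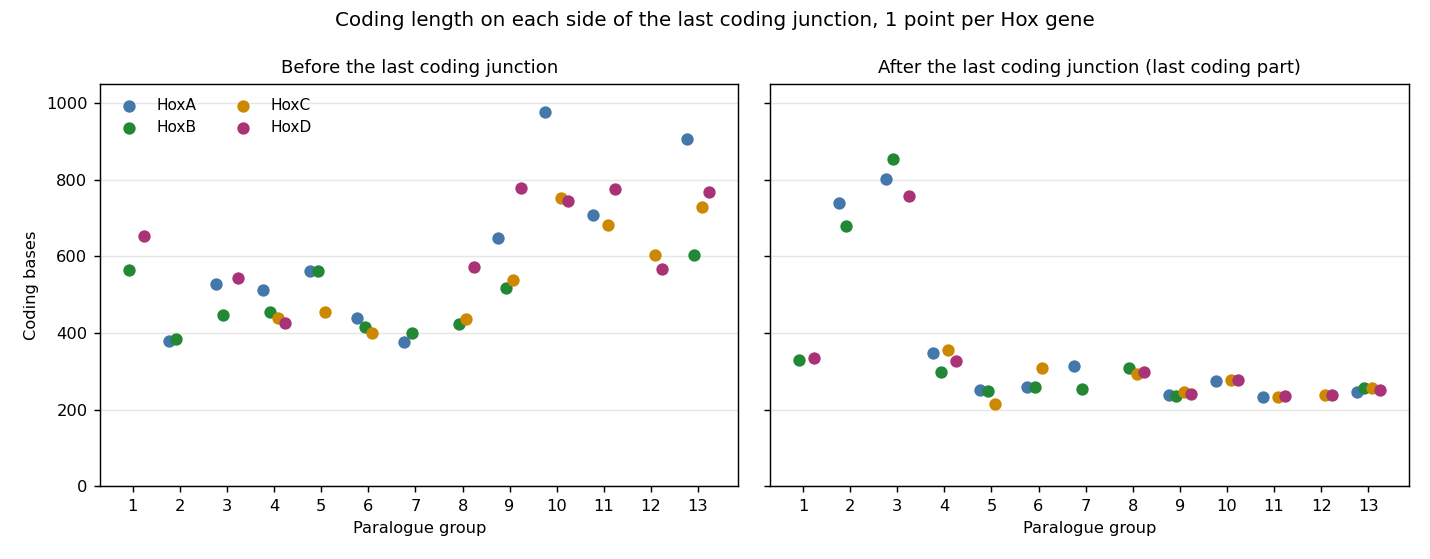
Coding bases before (left) and after (right) the last coding junction for 38 of 39 Hox genes, by paralogue group, coloured by cluster. After the junction, groups 9 to 13 lie between 233 and 278 bases and groups 2 and 3 between 680 and 854, while before it groups 9 to 13 spread from 517 to 976.

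Variation within a paralogue group was measured as the ratio of its longest to its shortest member. By this ratio the last coding part varied less than the rest in 10 of 13 groups, and more in groups 2, 6 and 7. In bases, group 3 spread as far after the junction (758 to 854) as before it (448 to 544). Both members of group 12 had 239 bases there, against 604 bases before the junction in Hoxc12 and 568 in Hoxd12. Group 9 had the largest ratio of total coding length between its longest and shortest member, at 1.35. Its lengths were 888 bases in Hoxa9, 753 in Hoxb9, 783 in Hoxc9 and 1020 in Hoxd9. After the last junction these genes had 239, 236, 245 and 242 bases in the same order, and the spread was on the other side, with 517 in Hoxb9 and 778 in Hoxd9. Group 3 had the smallest ratio among groups of at least 3 genes, at 1.02, with 1332 bases in Hoxa3 and 1302 in both Hoxb3 and Hoxd3. Group 3 also had the widest range of transcript span of the 13 groups, from 4162 bases for the shorter row of Hoxb3, which represents that gene here, to 44006 for Hoxa3.

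In the long group 3 transcripts most of the span lay ahead of the coding part. The only row of Hoxa3 began 40418 bases before its coding start, which is 91.8% of its span of 44006 bases. Its first exon had 28 bases, and introns of 12101, 17046, 10938 and 1378 bases followed. The only row of Hoxd3 spanned 36279 bases and began 32019 bases before its coding start (88.3%), with introns of 31611 and 1766 bases. Hoxb3 had a pair of rows with the same 1302 coding bases, of which the longer spanned 24805 bases and began 21123 bases before its coding start (85.2%). Its introns had 17618, 2948 and 849 bases. The shorter row of Hoxb3 spanned 4162 bases and began 20643 bases further downstream. In RefSeq the span of Hoxb3 reached 16025 bases further upstream than the longer row. That is past Hoxb4, of 3372 bases, which ended 1487 bases before the deposited start of Hoxb3. The contrast of Hoxb3 with Hoxa3 and Hoxd3 thus holds for the deposited rows.

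**Figure D5:**
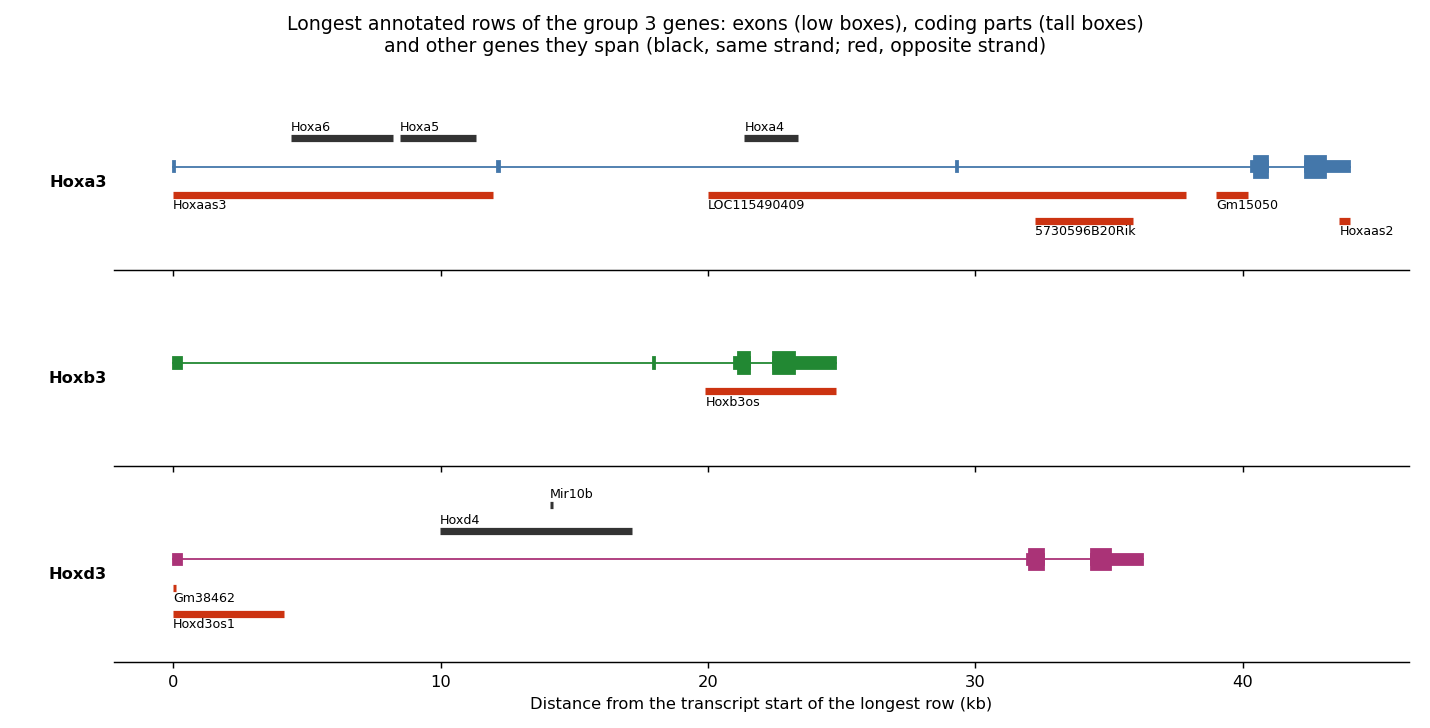
Longest row of each group 3 gene, drawn from its transcript start in kb, with exons as low boxes, coding parts as tall boxes, and other loci it overlaps above (same strand) and below (opposite strand), cut off at the ends of the row. Hoxa6, Hoxa5 and Hoxa4 lie within introns of Hoxa3 and Hoxd4 within the first intron of Hoxd3, while Hoxb3 holds no other Hox gene.

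With these starts, the Hoxa3 row contained the whole of Hoxa4 (2022 bases), Hoxa5 (2834) and Hoxa6 (3815), and the Hoxd3 row the whole of Hoxd4 (7183). No exons were shared in these overlaps. The upstream bases of Hoxa3 and Hoxd3 are shown because they mark where those long transcripts begin, upstream of genes with other numbers. Each is the 250 bases before the transcript start from RefSeq (GRCm38.p6), written 5' to 3' on the transcribed strand with every CG dinucleotide in capitals. Hoxa3 (chr6:52213068-52213317, minus strand) had 18 CG dinucleotides and Hoxd3 (chr2:74711743-74711992, plus strand) 12.
Hoxa3: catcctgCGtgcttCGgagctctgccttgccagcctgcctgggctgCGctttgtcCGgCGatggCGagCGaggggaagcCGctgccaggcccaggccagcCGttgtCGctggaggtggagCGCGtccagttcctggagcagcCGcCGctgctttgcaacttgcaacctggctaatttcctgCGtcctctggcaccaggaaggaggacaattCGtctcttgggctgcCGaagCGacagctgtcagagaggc
Hoxd3: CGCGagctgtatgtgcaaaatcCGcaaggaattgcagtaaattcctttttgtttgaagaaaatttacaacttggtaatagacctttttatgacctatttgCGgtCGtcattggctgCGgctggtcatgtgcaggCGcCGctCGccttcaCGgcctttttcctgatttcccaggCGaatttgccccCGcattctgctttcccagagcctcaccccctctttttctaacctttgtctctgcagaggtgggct

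The same windows of Hoxa9 and Hoxd9 are shown as members of the group with the most unequal coding lengths. Hoxa9 (chr6:52227371-52227620, minus strand) had 3 CG dinucleotides and a GC content of 49.6%, and Hoxd9 (chr2:74697513-74697762, plus strand) had 13 and 65.2%.
Hoxa9: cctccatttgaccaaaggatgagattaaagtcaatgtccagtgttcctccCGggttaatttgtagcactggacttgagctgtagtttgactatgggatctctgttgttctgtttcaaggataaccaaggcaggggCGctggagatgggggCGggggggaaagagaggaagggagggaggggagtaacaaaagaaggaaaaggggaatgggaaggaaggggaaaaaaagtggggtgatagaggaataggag
Hoxd9: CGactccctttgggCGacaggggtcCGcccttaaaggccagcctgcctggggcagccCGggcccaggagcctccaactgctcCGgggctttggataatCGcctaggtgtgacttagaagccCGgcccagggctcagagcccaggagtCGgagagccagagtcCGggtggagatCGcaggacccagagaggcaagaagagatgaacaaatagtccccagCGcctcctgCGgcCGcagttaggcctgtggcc

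The reference table held 24 such windows for 22 of the 39 Hox genes, and all 24 lay directly upstream of the start of a deposited row. CG, which reads the same on both strands, was counted in each window of 250 bases. Of the 24, 10 were from HoxA, 3 from HoxB, 1 from HoxC and 10 from HoxD, so the values that follow mostly describe HoxA and HoxD. The Hox windows held a median of 12.5 CG dinucleotides, against 6 in the windows of other genes, and a median GC content of 58.6% against 52.4%. Their range was wide, from 2 for the upstream start of Hoxd11 to 35 for Hoxa13. At least 1 CG was present in 100% of Hox windows and in 92.1% of other windows, out of 32851 windows in all. Where a gene had windows at each of 2 starts, the downstream one held more, with 20 against 7 for Hoxa10 and 20 against 2 for Hoxd11.

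More than 1 row was listed for 6 Hox genes (Hoxa9, Hoxa10, Hoxb3, Hoxd8 and Hoxd11 among them), against 40.6% of all protein-coding symbols. For Hoxa10, which acts in the uterus and the lumbar spine, a row that began 5915 bases further upstream coded for 94 residues in place of 416. Hoxd8 had rows of 289, 288 and 107 residues, the last from a start 874 bases further upstream. Hoxa9, known for its part in blood stem cells, had rows of 295 and 271 residues. Hoxd11, which patterns the forearm, had 1 row with 336 residues and 1 without a coding part that began 2765 bases further upstream, the single non-coding row among the 46.

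Another symbol shared at least 1 base with 15 of 39 Hox loci (38.5%), against 19.2% of the 20992 protein-coding loci. An opposite-strand non-coding locus did so for 13 of 39 (33.3%), against 5.85%. In HoxA 6 loci were overlapped, in HoxB 4, in HoxC 2 and in HoxD 3. The partner was another Hox gene for 6 loci, namely Hoxa3 with Hoxa4, Hoxa5 and Hoxa6, and Hoxd3 with Hoxd4. Exons were shared for 7 loci (Hoxa3, Hoxa11, Hoxb2, Hoxb3, Hoxd3 and Hoxd8 among them). The share over all protein-coding loci is not given for shared exons, so this count has no scale. Overlap by position does not show that the transcripts are made in the same cells.

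Between the first and last Hox genes the annotation placed 25 other symbols, of which 19 were lncRNAs and 6 miRNAs. The lncRNAs numbered 9 in HoxA, 4 in HoxB, 2 in HoxC and 4 in HoxD. This came to 8.53, 2.30, 1.73 and 4.13 per 100 kb in that order, against 0.125 over the assembled chromosomes from their first to their last annotated base. The clusters begin and end at genes, while that wider extent takes in all stretches without genes. Set beside protein-coding loci, there were 19 lncRNAs for 39 Hox genes, and 3319 lncRNA loci for 20992 protein-coding loci. The opposite strand held 15 of the 19, a share near the 71.6% of all 3319 lncRNA loci that lay opposite their nearest protein-coding locus. The 4 on the Hox strand were Mira in HoxA, Gm11538 and Gm53 in HoxB and Gm14424 in HoxD. Gm11538 and Gm53 both stood in the long interval between Hoxb13 and Hoxb9.

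Haglr and Hoxaas2 started near a Hox start and ran away from it. Haglr began 84 bases from the start of Hoxd1 and filled 14475 bases between Hoxd1 and Hoxd3, ending 150 bases short of Hoxd3. Hoxaas2 began 843 bases from the start of Hoxa2 and reached 390 bases into the end of Hoxa3. Hotair is known in human cells to bind Polycomb proteins. It lay between Hoxc12 and Hoxc11, overlapped neither and began 6580 bases from the start of Hoxc11.

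Others started inside a Hox locus. Hoxa11os began 567 bases inside Hoxa11 and shared 568 bases with it. Gm38462 began 65 bases inside Hoxd3 and contained the whole of Hoxd8. Hoxd3os1 began 4137 bases inside Hoxd3. Gm36878, of 587 bases, lay within Hoxc9, and Gm15050, LOC115490409 and 5730596B20Rik lay within Hoxa3.

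Rows that touched at least 2 Hox loci, a Hox row's own locus included, numbered 12. Of these, 6 belonged to Hox genes and 6 to other symbols. The rows of Hoxa4, Hoxa5, Hoxa6, Hoxd4 and Mir10b were counted because they lay inside Hoxa3 or Hoxd3, and spanned no other Hox gene. Hoxaas3 (12474 bases) contained Hoxa5 and Hoxa6 and overlapped the start of Hoxa3. Hoxb5os (15874 bases) contained Hoxb5 and Hoxb6 without sharing an exon with either. Hoxb3os (10361 bases) shared exons with both Hoxb2 and Hoxb3, and was the only one of the 12 rows with exonic overlap of more than 1 Hox gene. Over its 2 rows together, Gm38462 also shared exons with Hoxd3 and Hoxd8. LOC115490409 (17882 bases) contained Hoxa4 inside the span of Hoxa3. The remaining ones were Gm38462 and the rows of Hoxa3 and Hoxd3 themselves.

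All 6 miRNA genes lay on the Hox strand. They belong to the miR-10 and miR-196 families and to miR-615, and miR-10 and miR-196 are known to target Hox transcripts. Mature 5p sequences are shown because the seeds (bases 2 to 8, in capitals) of miR-10 and miR-196 are shared between clusters. Both arms of miR-615, found in HoxC alone, are shown beside them, and all sequences are from RefSeq (GRCm38.p6).
mmu-miR-10a-5p: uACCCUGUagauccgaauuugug
mmu-miR-10b-5p: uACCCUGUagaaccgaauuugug
mmu-miR-196a-5p: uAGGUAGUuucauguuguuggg
mmu-miR-196b-5p: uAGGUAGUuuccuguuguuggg
mmu-miR-615-5p: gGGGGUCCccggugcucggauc
mmu-miR-615-3p: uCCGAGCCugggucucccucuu

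The pair of miR-10 sequences shared the seed ACCCUGU and differed by U12A, counted from 1 at the 5' end with miR-10a first. The miR-196 sequences shared the seed AGGUAGU and differed by A12C, with miR-196a first. None of the seeds shown occurred in a mature miRNA from outside the clusters, among the 1679 names of the reference table. Mir10a (mature 5p at chr11:96317186-96317208) lay 992 bases upstream of Hoxb4. Mir10b (chr2:74726074-74726096) lay inside the rows of both Hoxd4 and Hoxd3, so each miR-10 gene was at a group 4 gene. The miR-196 genes stood beside group 9. Mir196b (chr6:52230129-52230150) was 2710 bases upstream of Hoxa9, Mir196a-2 (chr15:102973365-102973386) 3597 bases upstream of Hoxc9 and Mir196a-1 (chr11:96265187-96265208) 6064 bases upstream of Hoxb9. In HoxA and HoxC the gene on the other side was of group 10 (Hoxa10 at 1031 bases, Hoxc10 at 1451), a group that HoxB lacks. No miR-196 gene was listed in HoxD. Mir615 (5p at chr15:103014926-103014947) lay inside Hoxc5.

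Relatives and partners of the Hox genes were listed for comparison. The ParaHox genes, a sister group of homeobox genes that pattern the gut and nervous system, had rows for 6 of 6 symbols, with a median span of 6051 bases and 2 exons in Gsx1, Gsx2 and Pdx1. Those 3 genes had the last coding junction in phase 1, as the Hox genes did, while Cdx1, Cdx2 and Cdx4 had 3 exons and phase 0. Evx1 and Evx2, homeobox genes related to even-skipped of Drosophila, had 3 exons, phase 0 and a median span of 5724 bases. The 9 TALE cofactors (Meis, Pbx and Pknox), which bind DNA together with Hox proteins, had a median span of 138542 bases and a median of 11 exons.

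The first protein-coding genes beyond the clusters stood further off than the median gap within them. On the group 13 side these were Evx1 at 52617 bases from HoxA, Ttll6 at 28863 from HoxB, Calcoco1 at 198952 from HoxC and Evx2 at 8667 from HoxD. On the group 1 side they were Skap2 at 142817 bases from HoxA, Skap1 at 96337 from HoxB, Smug1 at 116437 from HoxC and Mtx2 at 60669 from HoxD. The longest gap within a cluster, 74719 bases between Hoxb13 and Hoxb9, exceeded the distances of Evx1, Ttll6, Evx2 and Mtx2.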

How the data were processed

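Pol I CUT&Tag libraries comprised 2 auxin and 2 control samples, grouped from their titles. Occupancy and depth were not analysed here, so depth is unknown and the planned test of auxin against control was not run. FastQC, Bowtie2, deepTools and bedtools were named, with build mm10, per the submitters' processing notes, without versions or roles. The table, as deposited by the authors, has 12 BED columns holding positions, blocks and a score of 0. Its origin is not given in the sources used here.

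Starts were converted to count from 1. Overlapping rows (1 base or more) with equal symbol, contig and strand formed 1 locus. A gene's structure was read from its row with the longest coding part, and on ties from the row with the shortest span. Blocks fewer than 10 bases apart were joined into 1 exon, which affected Hoxa13. Classes, reference spans, miRNAs and promoters came from RefSeq tables of GRCm38.p6. In 1894 pairs of overlapping promoter windows on opposite strands, 1894 were reverse complements. Interval overlaps were tested on simulated data (600 intervals, 0 differences). Python 3.11.15, pandas 2.3.3, numpy 2.4.6 and matplotlib 3.10.9 were used.

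The members and lists were chosen with earlier results of these data known. The naming rule took all Hox symbols, all miRNAs and lncRNAs within the clusters, the first protein-coding gene on each side, promoters of the groups with the most and least unequal coding lengths, and mature miRNAs. Hnrnpa3, the listed homeobox relatives and cofactors, and the flanking families of the closing section are outside it. Results on 1 Hox gene and on 2 lncRNAs are not reported here. Alternatives covered contigs, case, synonyms, row choice, coding parts, strand, exons, a 50% overlap and margins of 10 kb.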

Additional observations from a re-analysis of the deposited data

How the results depend on the processing

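The 39 symbols were found under each alternative tried (without regard to case, on all contigs, with synonyms, and with coding rows only), and 46 of 46 rows lay on the strand of their cluster. The summed cluster length of 492092 bases became 487623 between coding parts and 415078 without Hoxb13. The median gap of 4874 bases became 8425 between coding parts and 5309 between rows with the longest coding part. The median span over coding rows was 3319 bases, and 3216 with the longest coding row, the shortest row or the mean over rows of each gene. Overlapped Hox loci numbered 15, but 7 on the same strand, 7 by exons, 6 with other Hox symbols and 6 with protein-coding partners. The count was 13 with at least 50% of the shorter locus and 18 with RefSeq spans for Hox symbols. Rows touching several Hox loci, a Hox row's own locus included, numbered 12. By exons there was 1, by coding parts 4 and by at least 50% of each locus 4. Symbols within the clusters numbered 25, or 26 with 10 kb beyond each end, which added Hottip at HoxA. The comparisons with RefSeq spans, coding rows, joined blocks, transcript starts and the cluster without Hoxb13 were chosen after seeing the data. The alternatives planned for occupancy, replicates left out included, were not run. No paired analysis was possible because library values were not analysed here.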

Other observations

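Related genes flanked the clusters in a matching arrangement. Among the 8 nearest protein-coding genes on each side (64 in all), 27 fell into 11 families with members beside at least 2 clusters. The families were read from gene symbols after their positions were seen, so they carry no test. Each of the 11 stood on the same side of each cluster it accompanied. On the group 1 side the Nfe2 family of leucine zipper factors was present at all 4 clusters, as Nfe2l3 at HoxA, Nfe2l1 at HoxB, Nfe2 at HoxC and Nfe2l2 at HoxD. On that side the heterochromatin protein genes Cbx3, Cbx1 and Cbx5 stood by HoxA, HoxB and HoxC, and Hnrnpa2b1, Hnrnpa1 and Hnrnpa3 by HoxA, HoxC and HoxD. Skap2 and Skap1, and Snx10 and Snx11, stood by HoxA and HoxB, and Copz2 and Copz1 by HoxB and HoxC. On the group 13 side stood Atp5g1, Atp5g2 and Atp5g3, which encode a subunit of ATP synthase, by HoxB, HoxC and HoxD. Also there were Evx1 and Evx2, and Chn2 and Chn1, by HoxA and HoxD. Calcoco2 and Calcoco1 stood by HoxB and HoxC, and Atf7 and Atf2 by HoxC and HoxD.

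All 39 deposited Hox loci lay inside the RefSeq gene span of the same name, and 27 were equal to it. For 8 genes the RefSeq span reached more than 100 bases further upstream, among them by 16025 for Hoxb3, 6260 for Hoxb6 and 1042 for Hoxb7. The same extension was 2504 bases for Hoxb8, 16298 for Hoxc4, 11336 for Hoxc6 and 7618 for Hoxd10. With those spans 18 Hox loci were overlapped in place of 15, the added ones being Hoxb4, Hoxd10 and Hoxd11.

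Hoxa13 was deposited in 5 blocks of 244, 84, 8, 677 and 296 bases, separated by 1, 2, 1 and 715 bases. Blocks fewer than 10 bases apart occurred in 52 of 38851 coding rows (0.134%), and in no other Hox row. Hoxc11 had no untranslated bases, as did 1436 coding rows (3.7%).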
